A study of Arabidopsis thaliana with 23 samples.

Results

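Proline is an amino acid that many plants accumulate under salt and drought. It is made from glutamate by P5C synthetase, which exists as P5CS1 and P5CS2 in Arabidopsis, followed by P5C reductase, P5CR. It is broken down in mitochondria by proline dehydrogenase, PRODH1 and PRODH2, followed by P5C dehydrogenase, P5CDH. Transporters of the PROT family carry it across the plasma membrane together with other compatible solutes. The 8 genes of this pathway described here are these enzymes with PROT1 and PROT2, taken by name and locus from 27655 genes. Of the 8 genes, 7 had a mean of at least 1 TPM over the libraries and entered the test across 16564 genes, and PROT2, at a mean of 0.965 TPM, did not.

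The libraries were made from whole seedlings of Arabidopsis thaliana. Both genotypes were grown on MS medium with 3% sucrose under constant light at 22 °C for 10 days, after 2 days of cold. The genotypes were the wild type (WT), which the study's design text calls gl1, and sos2-2, a mutant allele of SOS2, a protein kinase needed for salt tolerance that activates sodium export. What the allele changes in the gene is not stated. The salt groups (NaCl) spent a further 12 hours in liquid MS with 100 mM NaCl, and whether the MS groups were also moved to liquid is not stated. There were 3 mRNA libraries of WT in MS, 3 of WT in NaCl, 2 of sos2-2 in MS and 3 of sos2-2 in NaCl. Nothing in the labels ties the replicates to separate cultures. The p-values therefore reflect library-to-library spread, part of which may be technical.

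Levels are given as deposited, in TPM, the share of a gene's transcripts in its library corrected for length and set to a fixed total, summed over a gene's transcripts, so levels of different genes can be compared per length. Changes are log2 differences of rescaled TPM + 1, tested with limma over all 16564 genes and called where the p adjusted by Benjamini-Hochberg was under 0.05. Rescaling was needed because plastid transcripts took between 65.4 and 79.3% of the total in every library, with group means of 68.3% in WT in MS, 75.0% in WT in NaCl, 70.8% in sos2-2 in MS and 67.9% in sos2-2 in NaCl. On the deposited scale the median nuclear gene moved by −0.21 with salt in WT and by 0.16 with salt in sos2-2, and it was 0.32 higher in sos2-2 than in WT in NaCl. Whole seedlings were used, so fewer cells of a type and less RNA per cell cannot be told apart. The SOS2 transcript was found in every library at 0.818 to 1.36 TPM and was called in no comparison, so the mutant label has no check from its level.

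The stretches shown first are those with ACGTG or ACTCAT upstream of the main synthesis and breakdown genes, P5CS1, P5CR, PRODH1 and P5CDH, of which P5CR was called in no comparison. ACGTG is the core of the element through which abscisic acid acts on promoters, and ACTCAT is the element first described in the PRODH1 promoter for its response to hypo-osmolarity and proline. Each was searched on both strands in the 250 bases before the start of a gene's most abundant transcript. Among 16368 nuclear genes with a window, 24.2% held ACGTG, 11.8% held ACTCAT and 13.7% held CCGAC, the core of the dehydration-responsive element. The stretches below run 5′ to 3′ on the gene's strand, from the RefSeq genome TAIR10.1, with motif bases in capitals.
P5CS1, chr2:16603131-16603160, minus strand: cccttagttccaCACGTGgcgtttcctggt
P5CR, chr5:4788031-4788060, minus strand: tgaaatcctgatcCACGTcatcaacgatgc
PRODH1, chr3:12451563-12451592, minus strand: gaaaactttgcaATGAGTccattaattaaa
P5CDH, chr5:25103407-25103436, minus strand: cttcctcATGAGTcatgACTCATcacatca

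P5CS1 held ACGTG once on each strand, overlapping in a palindrome that ran from 87 to 82 bases before the start. The annotation also places this stretch in the first exon of a longer P5CS1 transcript. P5CR held ACGTG once, on the opposite strand, and CCGAC once, and PROT1 held ACGTG once. P5CS2 held CCGAC once and neither of the other motifs. PRODH1 held ACTCAT once, on the opposite strand, at 24 to 19 bases before the start, and P5CDH held it once on each strand. PRODH2 and PROT2 held none of the 3 motifs in this window. These are letter matches in a window and not measured binding.

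The whole PRODH1 window is shown because PRODH1 was the gene of the set called for a difference in salt response between the genotypes, a call that depended on single libraries. It lies at chr3:12451557-12451806 on the minus strand of TAIR10.1, with ACTCAT, read on the other strand, in capitals.
PRODH1 window: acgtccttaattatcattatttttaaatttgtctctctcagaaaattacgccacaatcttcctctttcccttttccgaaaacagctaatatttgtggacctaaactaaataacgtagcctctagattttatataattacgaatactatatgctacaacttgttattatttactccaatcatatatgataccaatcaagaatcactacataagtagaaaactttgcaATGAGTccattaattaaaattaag

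In synthesis, P5CS1 rose about as much with salt in sos2-2 as in WT, and P5CS2 rose by less in both. P5CS1 (AT2G39800, chromosome 2, 16598072 to 16603319, minus strand) makes the P5C synthetase that carries most stress-induced proline synthesis. Its level was 6.12, 6.19 and 6.47 TPM in WT in MS and 32.3, 31.1 and 27.9 TPM in WT in NaCl. In sos2-2 it was 6.03 and 5.73 TPM in MS and 46.4, 32.3 and 42.0 TPM in NaCl. Every salt library lay above every MS library in both genotypes, with no overlap. The log2 change with salt was 2.36 in WT (SE 0.13, limma adjusted p = 8.22e-06) and 2.37 in sos2-2 (SE 0.15, limma adjusted p = 1.29e-05). The difference between these responses was 0.00782, with a 95% interval from −0.43 to 0.44. On the deposited scale the sos2-2 salt libraries were also above all WT salt libraries, if narrowly for replicate 2, but after rescaling the 2 groups overlapped, with a log2 difference of −0.0165 (limma adjusted p = 0.952).

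P5CS2 (AT3G55610, chromosome 3, 20624020 to 20629295, minus strand) is the copy known for its housekeeping role in growth and embryo development. Its level was 10.9, 8.40 and 9.98 TPM in WT in MS and 16.4, 12.5 and 10.6 TPM in WT in NaCl. In sos2-2 it was 10.7 and 8.35 TPM in MS and 16.9, 16.6 and 16.6 TPM in NaCl. As deposited, WT NaCl replicate 3 fell inside the range of the WT MS libraries, while the sos2-2 groups did not overlap. The log2 change was 0.63 in WT (SE 0.10, limma adjusted p = 0.00493) and 0.57 in sos2-2 (SE 0.12, limma adjusted p = 0.0114). The WT call depended on the rescaling, since on the deposited scale the change was 0.38 with adjusted p = 0.211. The sos2-2 call was lost without sos2-2 MS replicate 1 (adjusted p = 0.0618) or without sos2-2 MS replicate 2 (adjusted p = 0.0967).

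The coding sequences of P5CS1 and P5CS2 were identical at 86.26% of 2154 aligned bases and their transcripts shared 47 stretches of 31 bases, which is 1.57% of those in P5CS1. Reads from such stretches could be assigned to either gene. Within each library P5CS1 was the lower of the pair in every MS library and the higher in every salt library. The ratio of P5CS1 to P5CS2 in TPM was 0.649 ± 0.0870 (SD, n = 3) in WT in MS and 2.37 ± 0.360 (SD, n = 3) in WT in NaCl. In sos2-2 it was 0.625 ± 0.0856 (SD, n = 2) in MS and 2.40 ± 0.409 (SD, n = 3) in NaCl. A ratio within a library does not depend on the rescaling factor. The mean salt difference in the log2 ratio of TPM + 1 was 1.77 (two-sided exact permutation test within genotypes, p = 0.005, the smallest that the 200 arrangements allow, adjusted p = 0.01 over the 4 ratios tested).

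P5CR (AT5G14800, chromosome 5, 4785960 to 4787996, minus strand) encodes the reductase of the last step of synthesis and was among the most abundant of the set. Its level was 30.8, 22.5 and 23.5 TPM in WT in MS and 28.6, 26.8 and 24.9 TPM in WT in NaCl. It was 33.3 and 23.9 TPM in sos2-2 in MS and 37.8, 34.6 and 36.0 TPM in sos2-2 in NaCl. The WT groups overlapped as deposited and the sos2-2 groups did not, and after rescaling it was the reverse. P5CR was not called with salt, at 0.33 in WT (SE 0.12, limma adjusted p = 0.113) and 0.15 in sos2-2 (SE 0.14, limma adjusted p = 0.581).

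**Figure D1:**
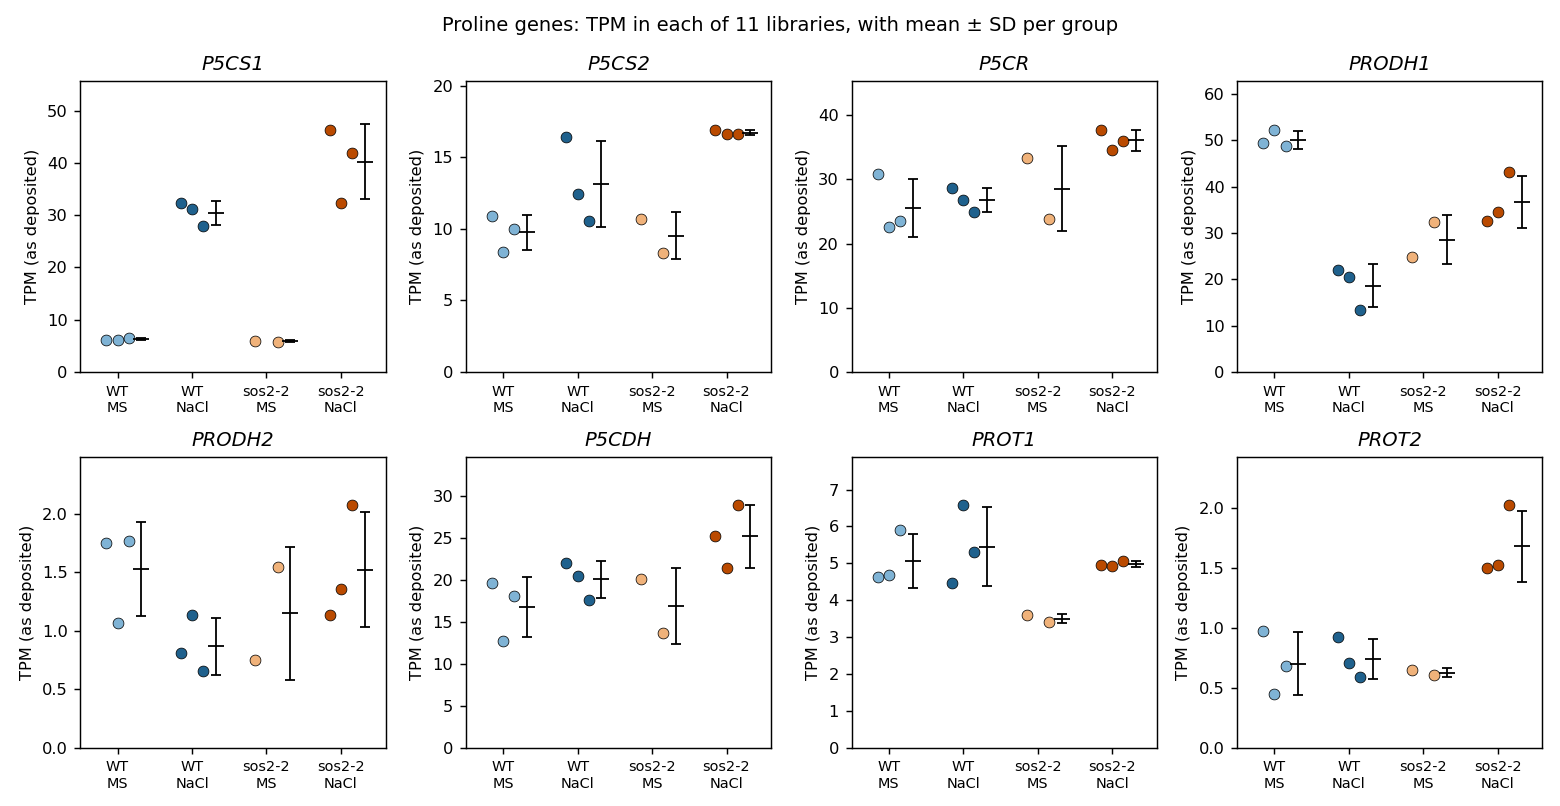
TPM as deposited (vertical axis, from 0) of the 8 proline genes in each of 11 libraries, 1 point per library, with group mean ± SD. P5CS1 lies near 6 TPM in all MS libraries and at 27.9 TPM or more in all salt libraries, while PRODH1 is lowest in WT in NaCl and PROT2 is highest in sos2-2 in NaCl.

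In breakdown, PRODH1 fell with salt in WT, was lower in sos2-2 than in WT in MS, and was not called with salt in sos2-2. PRODH1 (AT3G30775, chromosome 3, 12448636 to 12451556, minus strand, named ERD5 in RefSeq) is the main proline dehydrogenase and is known to be induced by proline and by release from osmotic stress. Its level was 49.3, 52.3 and 48.7 TPM in WT in MS and 22.0, 20.5 and 13.4 TPM in WT in NaCl. In sos2-2 it was 24.9 and 32.3 TPM in MS and 32.5, 34.5 and 43.1 TPM in NaCl. The 4 groups did not overlap on this scale, with WT in MS the highest and WT in NaCl the lowest, although the nearest libraries of the sos2-2 groups differed by less than their spread. After rescaling, the group means were 48.7 ± 6.84 TPM (SD, n = 3) in WT in MS, 21.2 ± 1.94 TPM (SD, n = 3) in WT in NaCl, 29.3 ± 9.49 TPM (SD, n = 2) in sos2-2 in MS and 31.9 ± 3.16 TPM (SD, n = 3) in sos2-2 in NaCl.

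The log2 change of PRODH1 with salt was −1.16 in WT (SE 0.17, limma adjusted p = 0.00256), and this call held in every alternative run. In sos2-2 the change was 0.15 (SE 0.19, limma adjusted p = 0.697), with a 95% interval from −0.27 to 0.57. The difference of the responses, sos2-2 minus WT, was 1.31 (SE 0.25, limma adjusted p = 0.0396, 95% interval 0.75 to 1.87), where 0.93% of all genes tested were called, 0.869% higher and 0.0604% lower. That call was lost without any of 8 of the 11 libraries, namely WT MS replicates 1, 2 and 3, WT NaCl replicates 2 and 3, sos2-2 MS replicate 1 and sos2-2 NaCl replicates 2 and 3, and also with no filter on low values (adjusted p = 0.0595). Over all 11 omissions the difference ran from 0.98 to 1.63 and the adjusted p from 0.0168 to 0.144. In MS, PRODH1 was lower in sos2-2, with a log2 difference of −0.74 (SE 0.19, limma adjusted p = 0.0362). That call was lost without any one of the WT MS libraries or WT NaCl replicate 2. In those omissions 55 to 424 of all genes were called higher in MS and 113 to 691 lower, beside 736 and 1016 in the main fit. Without sos2-2 MS replicate 1, which leaves 1 library in that group, the PRODH1 difference in MS was −0.41. On the deposited scale it was −0.80 (limma adjusted p = 0.0741), and with no filter the limma adjusted p was 0.0546. In NaCl, PRODH1 was 0.57 higher in sos2-2 (SE 0.17, limma adjusted p = 0.0563), and on the deposited scale 0.96 higher (limma adjusted p = 0.00666).

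Like PRODH1, markers of shoot tissue had their highest summed TPM in WT in MS. The summed TPM of 9 shoot and photosynthesis genes was 13132 to 15494 in WT in MS, 4872 to 8988 in WT in NaCl, 7294 to 7874 in sos2-2 in MS and 6651 to 10687 in sos2-2 in NaCl, and none of the 9 was at 0 in any library. Of the 9 genes, 5 fell with salt in WT, where 5.71% of all genes were called lower, and 1 fell with salt in sos2-2, where 3.44% were. Against WT, 3 were lower in sos2-2 in MS, where 6.13% of all genes were lower, and 1 was lower in NaCl, where 4.88% were. In NaCl, 3 of the 9 had a log2 difference above 0 and the median was −0.19, while PRODH1 was 0.57 higher in sos2-2. For the difference of responses, 8 of the 9 were above 0 and none was called. Their median was 0.44, beside 0.0207 over all genes and 1.31 for PRODH1. RBCS1A, at a mean of 5072 TPM, was the largest part of the shoot sum. The summed TPM of 10 root genes was 34.5 to 35.5, 18.3 to 32.9, 18.3 to 24.2 and 23.9 to 29.6 in the same order of groups, and none was at 0 either. The root sum was thus highest in WT in MS too. Of the 6 root genes tested, 2 were lower in sos2-2 in MS, where 6.13% of all genes were lower. None of the 6 was called in another comparison. The part of tissue makeup in the PRODH1 result was not tested. Libraries also differed in how log2 values followed the purine share of transcripts, with Spearman coefficients across genes below 0 in all WT MS libraries and above 0 in both sos2-2 MS libraries. The coefficients also differed in sign within the salt groups. In replicates 1 to 3 they were −0.316, 0.206 and 0.359 in WT in NaCl, and 0.241, −0.197 and 0.0203 in sos2-2 in NaCl. With that trend and the trend with length removed, a setting added after seeing the data, PRODH1 differed by −0.75 in MS (limma adjusted p = 0.0299) and its responses by 1.29 (limma adjusted p = 0.0391).

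PRODH2 (AT5G38710, chromosome 5, 15501126 to 15504269, plus strand) encodes the second proline dehydrogenase, known for low levels outside senescing and vascular tissue. Its level was 1.75, 1.07 and 1.76 TPM in WT in MS and 0.810, 1.14 and 0.655 TPM in WT in NaCl. It was 0.749 and 1.55 TPM in sos2-2 in MS and 1.14, 1.36 and 2.08 TPM in sos2-2 in NaCl. The groups overlapped in both genotypes. Its log2 change was −0.30 in WT (SE 0.19, limma adjusted p = 0.313) and 0.10 in sos2-2 (SE 0.21, limma adjusted p = 0.822), and the difference of responses was 0.40 with a 95% interval from −0.21 to 1.02. The ratio of PRODH1 to PRODH2 in TPM was 34.9 ± 12.2 (SD, n = 3) in WT in MS and 21.9 ± 4.70 (SD, n = 3) in WT in NaCl. In sos2-2 it was 27.02 ± 8.73 (SD, n = 2) in MS and 24.9 ± 3.96 (SD, n = 3) in NaCl. On the log2 ratio of TPM + 1, which damps a gene near 1 TPM such as PRODH2, the mean salt difference was −0.43 (two-sided exact permutation test, p = 0.09, adjusted p = 0.12), and it was not called. Its parts were −0.97 in WT and 0.11 in sos2-2, the second opposite in sign to the fall in the mean ratio of TPM. The coding sequences of the pair were identical at 77.17% of aligned bases and their transcripts shared no stretch of 31 bases.

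P5CDH (AT5G62530, chromosome 5, 25099003 to 25103312, minus strand, named ALDH12A1 in RefSeq) oxidises P5C back to glutamate. Its level was 19.6, 12.7 and 18.1 TPM in WT in MS and 22.1, 20.5 and 17.7 TPM in WT in NaCl. It was 20.2 and 13.7 TPM in sos2-2 in MS and 25.3, 21.5 and 28.9 TPM in sos2-2 in NaCl. As deposited the WT groups overlapped and the sos2-2 groups did not, and after rescaling neither genotype's groups overlapped. P5CDH rose with salt in WT by 0.51 (SE 0.12, limma adjusted p = 0.0256) and was not called in sos2-2 at 0.37 (SE 0.14, limma adjusted p = 0.131), but the difference of the responses was −0.15 with a 95% interval from −0.55 to 0.25. The WT call was lost on the deposited scale (0.26, adjusted p = 0.445), in a fit of only the 2 groups (adjusted p = 0.0566), and without WT MS replicate 2 or 3 or WT NaCl replicate 2 or 3, with adjusted p up to 0.104. PRODH1 and P5CDH were the genes of the set with ACTCAT upstream, and their changes with salt in WT had opposite signs.

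P5CDH overlaps SRO5 (AT5G62520) by 905 bases on the opposite strand, a pair known from work on small interfering RNAs made under salt. No source used here states whether the counting used strand, so reads from the overlap cannot be told apart. SRO5 was at 0.490 ± 0.196 TPM (SD, n = 3) in WT in MS, 0.601 ± 0.0801 TPM (SD, n = 3) in WT in NaCl, 0.650 ± 0.601 TPM (SD, n = 2) in sos2-2 in MS and 2.57 ± 1.51 TPM (SD, n = 3) in sos2-2 in NaCl. It was called in no comparison after rescaling, where its log2 change with salt in sos2-2 was 0.97 (SE 0.29, limma adjusted p = 0.0653). On the deposited scale SRO5 was called with salt in sos2-2 (1.08, limma adjusted p = 0.0204) and against WT in NaCl (1.08, limma adjusted p = 0.00686). At a mean of 1.12 TPM over all libraries, SRO5 passed the 1 TPM filter only through the sos2-2 NaCl libraries. Both calls test that same group, so they are not independent of the filter. P5CS1 and P5CS2 also overlap neighbours on the opposite strand, by 91 bases with AT2G39795 and by 32 bases with AT3G55605.

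Among the transporters, PROT1 was called in no comparison and PROT2 was highest in sos2-2 in NaCl. PROT1 (AT2G39890, chromosome 2, 16655577 to 16658412, plus strand) is known from the vascular tissue. Its level was 4.62, 4.67 and 5.90 TPM in WT in MS and 4.46, 6.57 and 5.31 TPM in WT in NaCl. It was 3.59 and 3.42 TPM in sos2-2 in MS and 4.96, 4.91 and 5.07 TPM in sos2-2 in NaCl. The sos2-2 MS libraries were the lowest of all 11 as deposited, below both the WT MS and the sos2-2 NaCl libraries. Its log2 change with salt was 0.31 in WT (SE 0.17, limma adjusted p = 0.245) and 0.24 in sos2-2 (SE 0.18, limma adjusted p = 0.492). The log2 difference of PROT1 between sos2-2 and WT was −0.37 in MS (SE 0.18, limma adjusted p = 0.202) and −0.44 in NaCl (SE 0.17, limma adjusted p = 0.117), neither of which was called. Without WT NaCl replicate 1, PROT1 was called both with salt in WT (0.51, adjusted p = 0.0181) and between the genotypes in NaCl (−0.64, adjusted p = 0.0112).

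PROT2 (AT3G55740, chromosome 3, 20695433 to 20698292, plus strand) is known from the root surface and as a salt- and wound-responsive transporter. Its level was 0.969, 0.451 and 0.685 TPM in WT in MS and 0.923, 0.707 and 0.593 TPM in WT in NaCl. It was 0.650 and 0.602 TPM in sos2-2 in MS and 1.49, 1.52 and 2.02 TPM in sos2-2 in NaCl. The sos2-2 salt libraries were above all other 8 libraries, which overlapped one another. Because PROT2 was below the filter, its test came from a fit of every detected gene, 24311 in all. There it rose with salt in sos2-2 by 0.59 (SE 0.11, limma adjusted p = 0.0119, where 6.27% of genes were called) and by 0.41 against WT in NaCl (SE 0.10, limma adjusted p = 0.0348, where 7.02% were called). Its change in WT was 0.16 (SE 0.10, limma adjusted p = 0.384, where 5.36% were called). The difference of responses was 0.43 (SE 0.15, limma adjusted p = 0.276, where 0.592% were called), so a difference between the genotypes' responses was not shown. The call in sos2-2 was lost without sos2-2 MS replicate 1 (adjusted p = 0.0819) or 2 (adjusted p = 0.0627). The call in NaCl was lost with median centring (adjusted p = 0.141), with a pseudocount of 0.1 (adjusted p = 0.0771), and without WT MS replicate 3, WT NaCl replicate 2 or 3, or any 1 of the sos2-2 NaCl libraries, with adjusted p up to 0.112.

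The ratio of PROT2 to PROT1 in TPM was 0.141 ± 0.0605 (SD, n = 3) in WT in MS, 0.142 ± 0.0562 (SD, n = 3) in WT in NaCl, 0.179 ± 0.00374 (SD, n = 2) in sos2-2 in MS and 0.337 ± 0.0539 (SD, n = 3) in sos2-2 in NaCl. On the log2 ratio of TPM + 1, which damps PROT2 most because it is under 1 TPM in most libraries, the mean salt difference was 0.13 (two-sided exact permutation test, p = 0.38, adjusted p = 0.38). With a pseudocount of 0.1 it was 0.40 (adjusted p = 0.155), so the size depends on the pseudocount and neither value was called. The pair was identical at 81.74% of coding bases with no shared stretch of 31 bases.

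Counted together, 3 of the 7 tested genes rose and 1 fell with salt in WT, where 10.1% of all genes tested were called, 4.38% higher and 5.71% lower. In sos2-2, 2 of 7 rose and none fell by limma, where 8.49% of all genes were called, 5.06% higher and 3.44% lower, and at an unadjusted p under 0.05 it was 3 higher and 0 lower. Between the genotypes 1 of 7 was lower in MS and none was called in NaCl by limma, where 10.6% of all genes were called in each. That share was 4.44% higher and 6.13% lower in MS and 5.69% higher and 4.88% lower in NaCl. In NaCl 1 gene was higher, PRODH1, and 1 was lower, PROT1, at an unadjusted p under 0.05. The share of all genes under this unadjusted threshold was not counted, here or with salt in sos2-2, so these counts have no background beside them. PRODH1 was the 1 gene of 7 called for a difference in salt response. By non-overlap of rescaled values, 5 of the 7 separated with salt in WT, against 29.9% of all genes, and 4 of the 7 in sos2-2, against 40.2%. Between the genotypes 2 of the 7 separated in MS, PRODH1 and PROT1, against 50.8% of all genes, and PRODH1 alone in NaCl, against 29.2%. The median log2 change of the 7 was 0.33 in WT and 0.24 in sos2-2, beside −0.00358 and −0.00366 over all genes tested.

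**Figure D2:**
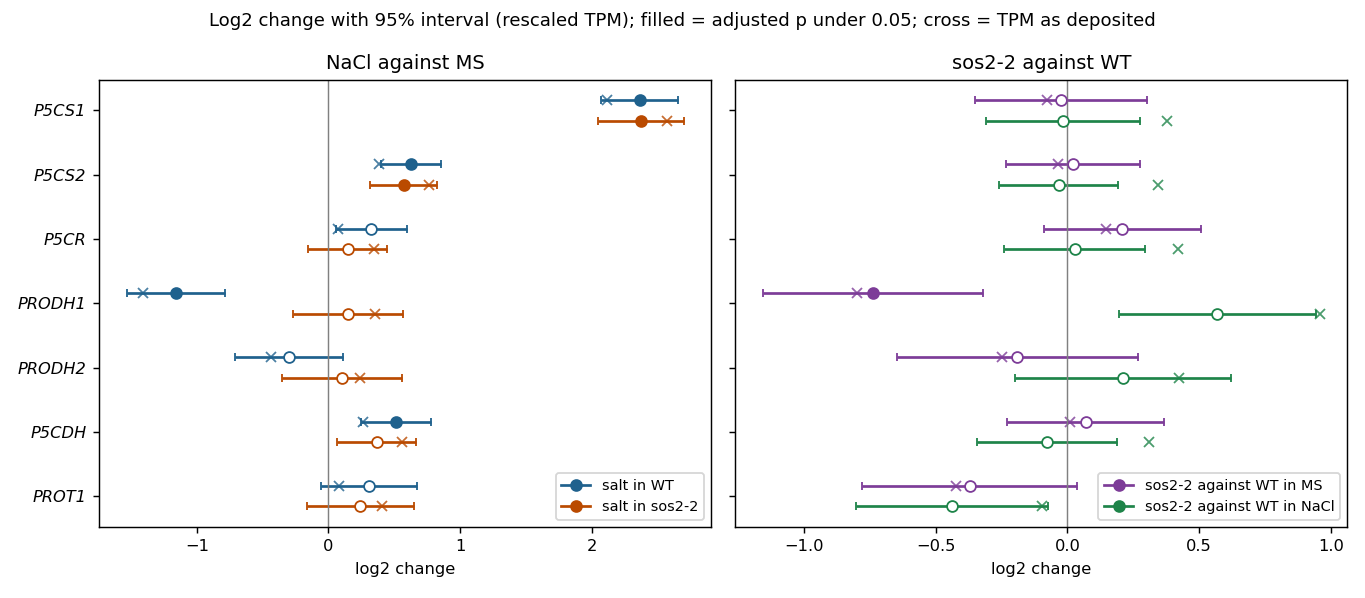
Log2 changes of the 7 tested proline genes on rescaled TPM + 1 (horizontal axis) with 95% intervals, for salt against MS in each genotype (left) and sos2-2 against WT in each medium (right). Filled points have a limma adjusted p under 0.05 and crosses show the deposited scale. P5CS1 stands at 2.36 and 2.37 in the left panel, and PRODH1 lies at −1.16 in WT and 0.15 in sos2-2.

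The balance of synthesis to breakdown was read from P5CS1 and PRODH1 within each library. In WT the ratio in TPM went from 0.125 ± 0.00727 (SD, n = 3) in MS to 1.69 ± 0.340 (SD, n = 3) in NaCl. In sos2-2 it went from 0.210 ± 0.0461 (SD, n = 2) to 1.11 ± 0.274 (SD, n = 3). PRODH1 exceeded P5CS1 in every MS library, and in NaCl P5CS1 exceeded PRODH1 in all 3 WT libraries but not in all sos2-2 libraries, where the ratio ran from 0.936 to 1.43. The mean salt difference in the log2 ratio of TPM + 1 was 2.87 (two-sided exact permutation test within genotypes, p = 0.005, the smallest possible, adjusted p = 0.01), made up of 3.52 in WT and 2.22 in sos2-2.

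**Figure D3:**
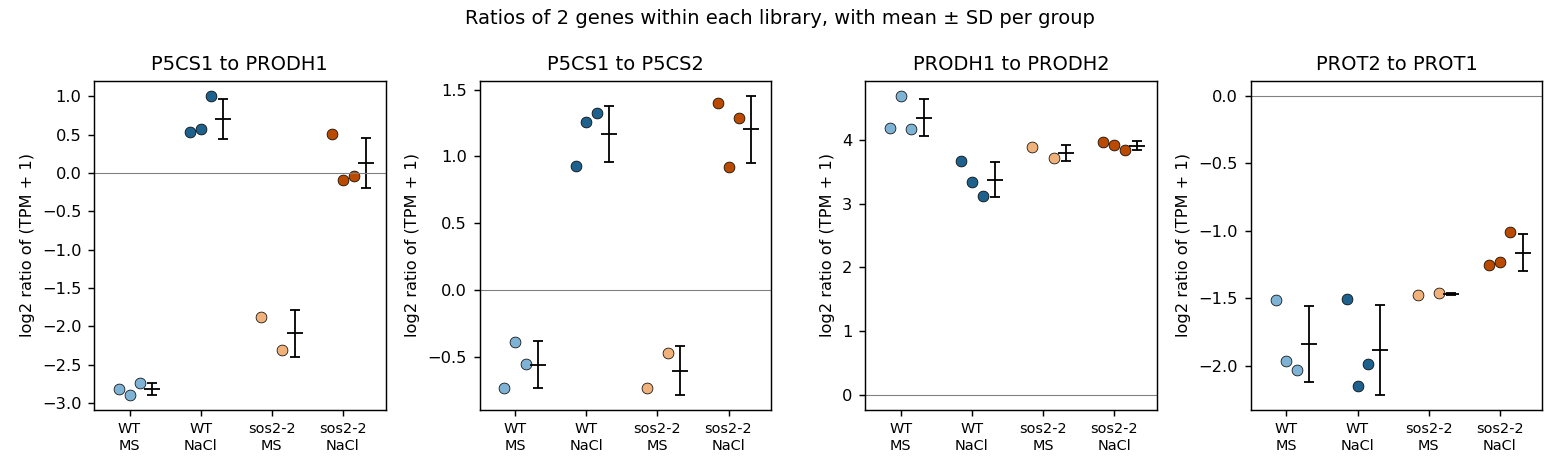
Log2 ratio of TPM + 1 between 2 proline genes (vertical axis) in each library, 1 point per library, with group mean ± SD. The P5CS1 to PRODH1 mean goes from −2.82 to 0.70 in WT and from −2.09 to 0.12 in sos2-2, while P5CS1 to P5CS2 differs by 1.73 in WT and 1.81 in sos2-2.

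The transcripts of P5CS1 differ in 1 point known in this gene, the skipping of an exon, which is why that exon is shown. Transcript 2 lacks exon 3 of the main form, a stretch of 104 bases, which is not a multiple of 3, and its annotated coding length is 1845 bases in place of 2154. Exon 3 lies at chr2:16602269-16602372 on the minus strand of TAIR10.1.
P5CS1 exon 3: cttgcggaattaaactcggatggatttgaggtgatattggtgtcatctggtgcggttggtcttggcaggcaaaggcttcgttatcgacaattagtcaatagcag

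Over all libraries, transcript 4 of P5CS1 held 91.2% of its TPM, transcript 2 held 6.59%, transcript 1 held 1.91% and transcript 3 held 0.334%. The share of transcript 2 was 3.74 ± 3.28% (SD, n = 3) in WT in MS and 10.3 ± 9.51% (SD, n = 3) in WT in NaCl. In sos2-2 it was 2.54 ± 3.59% (SD, n = 2) in MS and 4.31 ± 2.63% (SD, n = 3) in NaCl. These spreads are as large as the differences, so no change in exon 3 use was detectable, and transcript 4 held most of the P5CS1 TPM in every group. The share of the second P5CR transcript was 31.7 ± 3.18% (SD, n = 3), 35.8 ± 16.7% (SD, n = 3), 31.5 ± 1.09% (SD, n = 2) and 17.5 ± 5.55% (SD, n = 3) in the order WT in MS, WT in NaCl, sos2-2 in MS and sos2-2 in NaCl. PRODH1 was 99.9% transcript 1, P5CDH has 1 transcript, and PROT1 was spread over transcript 1 (50.1%), transcript 3 (36.1%) and transcript 2 (13.8%). Transcript shares are estimates from reads that can fit several forms of a gene, with no deposited error.

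**Figure D4:**
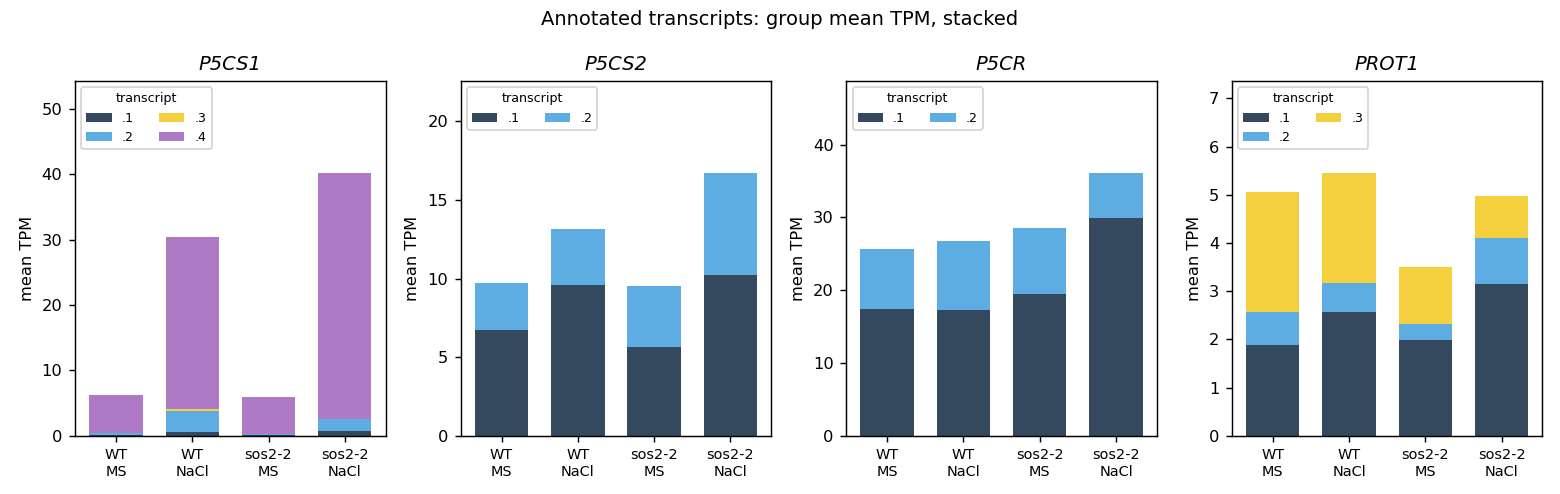
Group mean TPM (vertical axis, from 0) of each annotated transcript of 4 proline genes, stacked to the gene's total, with no error drawn. The P5CS1 bars are almost wholly transcript 4 in all groups, and PROT1 is divided among 3 transcripts.

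Genes with profiles most like P5CS1 and PRODH1 were ranked by the root mean square difference between centred log2 profiles over the 11 libraries. For P5CS1, whose own profile varied by 1.18 by the same measure, the nearest were RD20 (0.195), APL3 (0.321), AHP4 (0.353), KIN2 (0.377) and PAP1 (0.395). RD20 averaged 0.632 TPM in MS and 5.28 TPM in NaCl in WT, and 0.497 and 7.78 TPM in sos2-2. Its profile is damped by the added 1, since it was under 1 TPM in MS, and its rank depends on that. RD20 encodes a caleosin induced by dehydration, APL3 a subunit of the starch enzyme ADP-glucose pyrophosphorylase, KIN2 a cold- and abscisic acid-induced protein and PAP1 a regulator of anthocyanin. For PRODH1, whose profile varied by 0.468, the nearest were AT5G64850 (0.191), FED A (0.208), PSBQ-2 (0.214), AT3G26470 (0.217) and AT1G69160 (0.218). FED A encodes a leaf ferredoxin and PSBQ-2 a subunit of photosystem II. FED A averaged 323, 165, 236 and 265 TPM in WT in MS, WT in NaCl, sos2-2 in MS and sos2-2 in NaCl. The 11 libraries share 4 groups and the ranking is a description.

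A list of 45 genes around the pathway covered amino acid transporters, arginine and ornithine metabolism, glutamate metabolism, regulators and enzymes that use proline, and 37 were tested. With salt in WT, 4 of the 37 rose and 5 fell, where 10.1% of all genes were called, and in sos2-2, 4 rose and 1 fell, where 8.49% were called. Against WT, 5 were higher and 2 lower in sos2-2 in MS, and 4 were higher and 1 lower in NaCl, where 10.6% of all genes were called in each. These counts were fragile. With salt in WT, 1 rose and 2 fell without any 1 of WT MS replicates 2 and 3 and WT NaCl replicates 2 and 3, 2 rose and 2 fell without WT MS replicate 1, and 2 rose and 4 fell on the deposited scale. Over all genes tested, 726 rose and 945 fell in the main fit, and 278 to 347 rose and 287 to 402 fell in the first group of omissions. Without WT MS replicate 1 it was 377 and 471 of all genes, and on the deposited scale 281 and 1277. In MS, 0 were higher and 1 lower without WT MS replicate 2 or 3, and 1 higher and 1 lower without WT MS replicate 1 or WT NaCl replicate 2. Counts without either sos2-2 MS library are not given, since 1 library is then left in that group. The counts with salt in sos2-2 and in MS thus rest on those 2 libraries. In NaCl, 3 were higher and 0 lower without WT NaCl replicate 2 or 3 or any 1 of the sos2-2 NaCl libraries. Over all genes tested, 443 to 744 were higher and 279 to 628 lower in those omissions, beside 943 and 808 in the main fit. On the deposited scale it was 0 higher and 1 lower in MS, where 258 of all genes were higher and 204 lower. In NaCl it was 11 higher and 0 lower on that scale, where 3138 of all genes were higher and 67 lower. Without WT MS replicate 1, 2 or 3 or WT NaCl replicate 2, 55 to 424 of all genes were higher in MS and 113 to 691 lower. No gene of the list was called by limma for a difference in salt response, where 5 were higher and 4 lower at an unadjusted p under 0.05, the deposited scale called 3, all higher, and without WT NaCl replicate 1 there were 4 higher and 1 lower. The median log2 change of the list was −0.0745 with salt in WT and −0.0942 in sos2-2.

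Of the 9 tested arginine and ornithine genes, 3 rose with salt in WT, where 4.38% of all genes were called higher, and 1 rose in sos2-2, where 5.06% were. The 3 were ARGAH2, ARGAH1 and NAOD, and the 1 was ARGAH2. Arginase makes the ornithine that can be turned into P5C. ARGAH2, an arginase gene, was at 18.4 ± 4.15 TPM (SD, n = 3) in WT in MS and 54.5 ± 3.09 TPM (SD, n = 3) in WT in NaCl, and at 30.4 ± 2.57 TPM (SD, n = 2) and 79.2 ± 6.93 TPM (SD, n = 3) in sos2-2. It rose by 1.79 in WT (SE 0.18, limma adjusted p = 2.94e-04) and 1.15 in sos2-2 (SE 0.20, limma adjusted p = 0.00473), in every alternative run for both. ARGAH2 was also 0.77 higher in sos2-2 in MS (SE 0.20, limma adjusted p = 0.0352), and ARGAH1 rose by 0.61 with salt in WT (limma adjusted p = 0.0345) and was 0.75 higher in sos2-2 in MS (limma adjusted p = 0.0287), and each of these 3 calls was lost on the deposited scale and without some of the MS libraries. NAOD, a deacetylase of ornithine synthesis, rose by 0.41 with salt in WT (limma adjusted p = 0.0367), a call lost in 7 of the 21 alternatives run. OAT, ornithine aminotransferase, which links ornithine to P5C, was not among the genes called. NAGK, which acts early in ornithine synthesis, differed by −0.39 in sos2-2 in NaCl (limma adjusted p = 0.0487) a call lost in 17 of the 21 alternatives run, with a difference of −0.00584 on the deposited scale.

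Among the 8 tested transporters of the list, 1 rose and 2 fell with salt in WT, where 10.1% of all genes were called, 2 rose in sos2-2, where 8.49% were, and 3 were higher in sos2-2 in NaCl, where 10.6% were. LHT1, an amino acid permease of root and leaf mesophyll that also carries proline, was at 2.95 ± 0.855 TPM (SD, n = 3) in WT in MS, 2.19 ± 0.494 TPM (SD, n = 3) in WT in NaCl, 2.36 ± 0.731 TPM (SD, n = 2) in sos2-2 in MS and 6.96 ± 1.38 TPM (SD, n = 3) in sos2-2 in NaCl. It rose by 1.08 with salt in sos2-2 (SE 0.21, limma adjusted p = 0.00903) and was 1.004 higher in sos2-2 in NaCl (SE 0.19, limma adjusted p = 0.00820), the first of which was lost without sos2-2 MS replicate 2 (adjusted p = 0.0980). AAP3 and AAP5, other amino acid permeases, were higher in sos2-2 in NaCl by 0.82 (SE 0.11, limma adjusted p = 0.00158) and 0.57 (SE 0.10, limma adjusted p = 0.00560). The calls of LHT1, AAP3 and AAP5 in NaCl held in every alternative run. In WT, AAP3 fell by 0.67 and AAP4 fell by 0.95 with salt (limma adjusted p = 0.00552 and 0.00693), while AAP1, at 2.67 ± 0.787 TPM (SD, n = 3) in MS and 4.99 ± 0.395 TPM (SD, n = 3) in NaCl, rose by 0.95 (SE 0.25, limma adjusted p = 0.0398), a call lost in 9 of the 21 alternatives run. AAP5 rose by 0.40 with salt in sos2-2 (limma adjusted p = 0.0463), a call lost in 14 of the 21.

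Of the regulators, bZIP11, a sugar-controlled transcription factor of the group that binds ACTCAT-like elements in the PRODH1 promoter, was at 19.9 ± 4.40 TPM (SD, n = 3) in WT in MS, 23.0 ± 4.95 TPM (SD, n = 3) in WT in NaCl, 7.42 ± 1.28 TPM (SD, n = 2) in sos2-2 in MS and 24.5 ± 8.19 TPM (SD, n = 3) in sos2-2 in NaCl. It was lower in sos2-2 than in WT in MS, by a log2 difference of −1.24 (SE 0.20, limma adjusted p = 0.0106), and rose by 1.37 with salt in sos2-2 (SE 0.20, limma adjusted p = 0.00208). The first call was lost without sos2-2 MS replicate 1 or 2, with adjusted p up to 0.0960, and the second held in all alternatives run. The difference of its salt responses was 0.91 and was not called (limma adjusted p = 0.201). bZIP53, of the same group, was 0.63 higher in sos2-2 in NaCl (limma adjusted p = 0.0318), a call lost in 5 of the 21 alternatives run. PHR1, a phosphate starvation regulator, differed by −0.49 in sos2-2 in MS (limma adjusted p = 0.0421), a call lost in 11 of the 21. bZIP2 fell by 0.44 with salt in WT (limma adjusted p = 0.0404), a call also lost in 11 of the 21. Of the 6 tested regulators, 1 fell with salt in WT, where 5.71% of all genes were lower, and 1 rose in sos2-2, where 5.06% were higher. Against WT, 2 were lower in MS, where 6.13% of all genes were, and 1 was higher in NaCl, where 5.69% were.

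Among glutamate genes, GDH1, a glutamate dehydrogenase, fell by 0.81 with salt in sos2-2 (SE 0.16, limma adjusted p = 0.00965) and was 0.59 higher in sos2-2 in MS (SE 0.16, limma adjusted p = 0.0414). GDH2, which encodes another subunit, fell by 0.52 with salt in WT (limma adjusted p = 0.0289), a call lost in 6 of the 21 alternatives run, and GLU2, a ferredoxin-dependent glutamate synthase, was 0.76 higher in sos2-2 in MS (limma adjusted p = 0.0373). On the deposited scale no glutamate gene was called in MS, and the fall of GDH1 was lost there and without sos2-2 MS replicate 2 (adjusted p up to 0.0977). The MS difference of GDH1 was lost in 10 of the 20 alternatives run, and that of GLU2 in 9 of 21, in both cases without any 1 of the MS libraries, without WT NaCl replicate 2 and with no filter. Of the 5 genes that use proline, 1 fell with salt in WT, the prolyl-tRNA synthetase AT3G62120 (−0.39, limma adjusted p = 0.0406), a call lost in 12 of the 21 alternatives run.

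**Figure D5:**
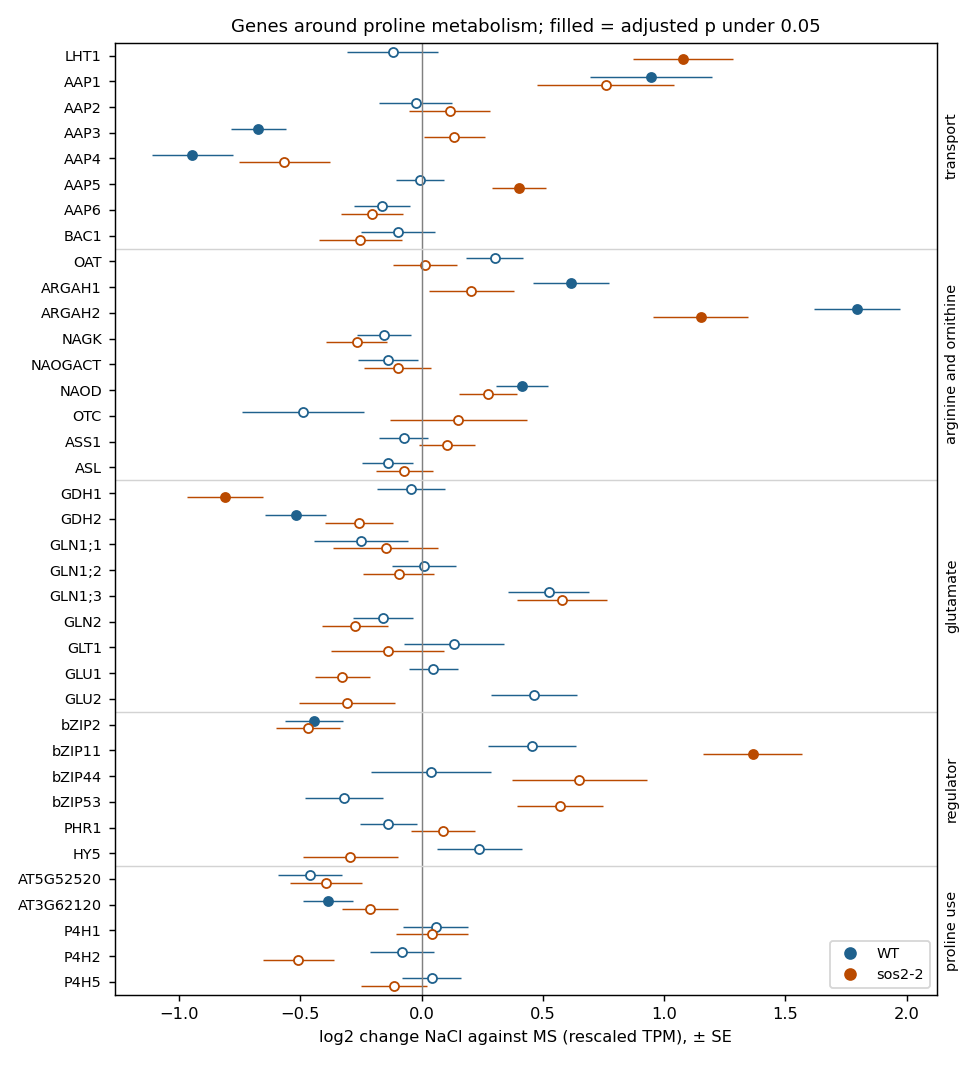
Log2 change with salt (horizontal axis, rescaled TPM + 1) ± SE for 37 genes around proline metabolism, by role, in WT and sos2-2. Filled points have a limma adjusted p under 0.05, and the gene furthest to the right is ARGAH2 in WT, at 1.79, and bZIP11 in sos2-2, at 1.37.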

How the data were processed

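The values were deposited by the authors as TPM per transcript, and each column summed to 1000000 over 48359 transcripts. The submitters' processing notes name kallisto 0.46.2, sleuth 0.30.0 and the build TAIR10. The role of each tool and the strandedness are not stated in the sources used. TPM keeps no depth, so depth is unknown and no counting interval is given. TPM was summed to 27655 genes, of which 27445 matched a RefSeq locus (TAIR10.1), all 8 proline genes among them. Columns and groups were matched by sample title, and 12 small RNA libraries of the 23 samples were not used here.

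Each library was rescaled by its median ratio to the geometric mean over 16369 nuclear genes with a mean of at least 1 TPM, because the plastid share of the fixed total differed between libraries (factors 0.709 to 1.24). Log2(TPM + 1) was fitted in limma 3.58.1 (R 4.3.3) with an intensity trend, 4 group means over 11 libraries and no replicate block, with Benjamini-Hochberg adjustment over 16564 genes. In simulated data for salt in WT over 16564 genes, 92% of 100 genes changed by 1 on the log2 scale were recovered, and 98% of 100 changed by 2. The noise was drawn separately for each gene and library, with a random scale per library. Changes were planted in WT in NaCl only. These shares thus do not cover other spread shared within a library or comparisons with the 2 sos2-2 MS libraries. Changes understate those of genes near 1 TPM. Ratios of 2 genes within a library used TPM as deposited and an exact permutation of salt within genotype (Python 3.11.15). Intervals are 95%. Genes were named by rule: the 8 proline genes, the 6 largest called changes of the wider list per comparison, and the 5 nearest profiles. NAOD, AT3G62120, bZIP2 and OAT of the wider list were named outside this rule. The proline genes and all lists were chosen with earlier results of these data known. Alternatives covered scaling, pseudocount, filter, groups in the fit, block, intensity trend and each library left out.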

Additional observations from a re-analysis of the deposited data

Results flagged for a closer look

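PRODH1 is listed because its salt response differed between the genotypes by a test of the difference itself. The log2 change with salt was −1.16 in WT and 0.15 in sos2-2, a difference of 1.31 (SE 0.25, limma adjusted p = 0.0396). The call was lost without any 1 of 8 of the 11 libraries, with adjusted p up to 0.144, and with no filter on low values (adjusted p = 0.0595). All 3 WT salt libraries were below all 3 WT MS libraries, while the rescaled sos2-2 groups overlapped. The summed shoot markers were also highest in WT in MS, at 14460 TPM on average, and at 7086 to 8300 TPM on average in the other groups. In NaCl the median log2 difference of the 9 shoot genes between sos2-2 and WT was −0.19, where PRODH1 was 0.57 higher. For the difference of responses, 8 of the 9 shoot genes were above 0, with a median of 0.44 beside 0.0207 over all genes, and none was called. Their part was not tested.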

How the results depend on the processing

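With salt in WT, 4 of 7 proline genes were called and on TPM as deposited 2. Over all 16564 genes, 726 rose and 945 fell, and as deposited 281 rose and 1277 fell. In MS, 1 was called between genotypes, and 0 on TPM as deposited or with no filter. Over all genes, 736 were higher and 1016 lower, 258 and 204 as deposited, and 443 and 693 of 24311 with no filter. In NaCl, 0 were called and 1 on TPM as deposited, with median centring, with nuclear genes at a common total, with no filter (PROT2), with a 5 TPM filter and with the replicate block. Over all genes, 943 were higher and 808 lower, and 3138 and 67 as deposited. With median centring, a common total or the block, 824 to 1101 were higher and 594 to 928 lower. It was 1032 and 674 of 24311 with no filter, and 642 and 554 of 8483 with the 5 TPM filter. For the difference of responses, 1 was called and 0 with no filter. Leaving out 1 library outside sos2-2 MS gave 3 to 5 calls for salt in WT and 2 for salt in sos2-2. It gave 0 to 1 for genotype in MS, genotype in NaCl and the difference of responses. Of all genes, 278 to 2000 then rose and 287 to 1850 fell with salt in WT. In sos2-2 it was 556 to 1037 and 321 to 795. In MS 55 to 1537 were higher and 113 to 1503 lower, and in NaCl 443 to 1234 and 279 to 1173. For the difference of responses 75 to 696 were higher, and without WT NaCl replicate 1 more were lower than higher. Each of these upper ends came from that omission, so the proline counts may follow calling over all genes.

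Signs turned only for changes that were not called. In MS, P5CS2 was −0.0344 as deposited, −0.00277 with median centring and −0.0326 with the purine and length trend removed, and P5CS1 was 0.0416 at a common nuclear total. In NaCl, P5CS1 was 0.38 as deposited, 0.0158 with median centring, 0.0224 at a common total and 0.0147 with a 5 TPM filter; P5CS2 was 0.34 as deposited and 0.00378 at a common total; P5CDH was 0.31 as deposited; P5CR was −0.0196 with the trend removed. The difference of responses as deposited was 0.38 for P5CS2, 0.27 for P5CR, 0.30 for P5CDH and 0.33 for PROT1, and for P5CS1 it was −0.0193 at a common total and −0.0133 with the replicate block. The log2 ratio of PROT2 to PROT1 was −0.0131 at a pseudocount of 5. The cause was not tested.

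Leaving out 1 library turned the sign of PRODH1 (−0.17 to 0.48) and PRODH2 (−0.25 to 0.45) with salt in sos2-2. In MS it did so for P5CS1 (−0.12 to 0.0697), P5CS2 (−0.00570 to 0.0491), PRODH2 (−0.54 to 0.16) and P5CDH (−0.0534 to 0.19). In NaCl it did so for P5CS1 (−0.13 to 0.0754), P5CS2 (−0.0981 to 0.0348) and P5CR (−0.0219 to 0.12), and for the difference of responses for P5CS1 (−0.10 to 0.10), P5CS2 (−0.12 to 0.0131) and PROT1 (−0.27 to 0.0464). The other ranges were 2.76 to 2.98 for the ratio of P5CS1 to PRODH1 and 1.70 to 1.84 for that of P5CS1 to P5CS2.

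Deviations of same-numbered libraries correlated at 0.0695, −0.0767 and 0.330 with salt in WT, and −0.0524 and 0.132 with salt in sos2-2. In MS they correlated at 0.157 and 0.145, and in NaCl at −0.525, −0.220 and −0.208. Libraries with different numbers were not compared, so these values do not settle whether replicate numbers pair the libraries. With the replicate block, PRODH1 was called in NaCl (limma adjusted p = 0.0404) and no other call on a proline gene changed. In the wider list the block left 1 gene higher and 1 lower in MS, from 5 and 2, and ended the calls of GDH1 and GLU2 there. Of the changes and ratios not named here, most kept their direction and side of the threshold: among 753 values for single genes, 149 kept a call, 26 lost one, 9 gained one and 46 that were never called turned sign. Limits are the 2 libraries of sos2-2 in MS, the unknown depth and the unknown strand.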
